A study of Mus musculus with 16 samples.

Results

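The genes of Desert hedgehog signalling were followed in the fetal mouse gonad: the ligand gene Dhh, the receptor gene Ptch1, the signal transducer gene Smo, the transcription factor genes Gli1, Gli2 and Gli3, the inhibitor gene Hhip, and the co-receptor genes Boc and Gas1. These 9 genes were taken by name from the platform annotation, which assigned 24 of the 45101 probe sets to them. All 9 had a probe set above the filter on low values and were tested among 12336 genes. The gonads were wild-type or Wnt4 knock-out and were collected 12.5 or 14.5 days into embryonic development (E12.5, E14.5). Their RNA was hybridised to 16 Affymetrix arrays, with 2 arrays, numbered as biological replicates, in each of 8 groups: ovary and testis of each genotype at each stage. No source used here gives the knock-out allele, the mouse strain or whether an array held 1 embryo or a pool. For male samples the title says ovary and the source says testis, and they were taken as testis.

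Hedgehog proteins are secreted ligands. In their absence the receptor PTCH1 holds the membrane protein SMO inactive; ligand binding to PTCH1, helped by co-receptors such as BOC and GAS1, releases SMO and so the GLI transcription factors. Ptch1, Hhip and Gli1 are themselves transcribed in response to the signal, and HHIP binds the ligand and limits its spread. In the fetal testis Sertoli cells secrete DHH, and the receiving cells lie in the interstitium and around the cords, where the signal is needed for fetal Leydig cells, the source of fetal androgen. Wnt4 encodes a secreted WNT protein with a known part in ovary development.

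Sequences upstream of 3 members are shown because they belong to the ligand and the inhibitor, which were higher in the testis, and to a co-receptor, which was lower there. They are the RefSeq promoter windows of GRCm38.p6, cut to the bases outside the annotated gene, 5′ to 3′ on the minus strand, with CG dinucleotides in capitals.
Dhh, chr15:98898563-98898790: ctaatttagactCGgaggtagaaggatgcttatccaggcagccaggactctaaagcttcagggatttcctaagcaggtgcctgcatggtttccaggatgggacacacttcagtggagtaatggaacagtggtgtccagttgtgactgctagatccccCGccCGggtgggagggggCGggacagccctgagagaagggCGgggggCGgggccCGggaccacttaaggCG
Hhip, chr8:80058061-80058258: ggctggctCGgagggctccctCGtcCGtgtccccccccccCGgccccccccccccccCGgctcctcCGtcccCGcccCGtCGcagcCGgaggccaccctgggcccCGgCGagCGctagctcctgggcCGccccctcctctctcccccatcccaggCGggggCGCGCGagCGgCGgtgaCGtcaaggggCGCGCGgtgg
Gas1, chr13:60177536-60177785: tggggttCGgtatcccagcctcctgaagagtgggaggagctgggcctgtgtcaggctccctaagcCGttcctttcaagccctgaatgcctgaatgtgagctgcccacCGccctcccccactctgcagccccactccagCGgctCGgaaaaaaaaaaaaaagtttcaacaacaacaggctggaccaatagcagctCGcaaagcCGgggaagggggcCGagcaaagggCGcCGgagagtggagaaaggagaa
The Dhh stretch held 8 CG dinucleotides in 228 bases and 59.2% G or C, and the Gas1 stretch 10 in 250 bases and 58.8%. The Hhip stretch was denser, with 24 in 198 bases and 82.3% G or C. RefSeq windows were matched for 7 of the 9 members, without Gli1 and Boc. Both strands of the full windows, 250 bases before to 50 after a start of each gene, were searched for 3 motifs. For Ptch1 and Gli2 the window lay wholly inside the annotated gene, so the bases at its annotated 5′ end were not searched. The letters GACCACCCA (bound by GLI factors) are in 0.253% of the 32851 windows in the table, AACAAT (SOX factors) in 10.7% and CAAGGTCA (NR5A1) in 1.56%, and none of the 7 windows held any of them.

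Levels are probe-set intensities on the deposited linear scale, where the array median lay between 9.28 and 10.4 and the mean between 272 and 288. Changes are on the log2(intensity + 4) scale, so those of dim probe sets are understated, and calls are adjusted p-values under 0.05 in limma with Benjamini-Hochberg adjustment over all tested genes. Wnt4 itself ranged from 844 to 1822 in the wild-type ovary arrays and from 302 to 839 in the knock-out ones, and from 473 to 753 in wild-type and 231 to 413 in knock-out testis. No source used here says whether its probe set lies in the deleted part, so these levels do not test the labels. Several arrays carried RNA of the other sex. Judged by 3 Y-linked genes (Uty, Kdm5d, Eif2s3y), testis RNA made up 18.2% and 6.95% of the wild-type ovary arrays of E12.5, 0.223% and 17.9% of the knock-out ovary arrays of that stage, 0.423% and 19.9% of the wild-type ovary arrays of E14.5, and 0.277% and 0.432% of their knock-out counterparts. Judged by Xist, ovary RNA made up 22.8% of the second wild-type and 16.5% of the second knock-out testis array of E14.5, and at most 0.0603% of the other testis arrays. These shares are relative to the cleanest array of each sex, and their part in the results was not tested beyond the values given beside them. The sex-linked genes do not identify the tissue, so testis RNA and ovary RNA in these shares mean RNA of the other sex. The replicate 1 array of knock-out ovary at E12.5 had the highest 3'/5' ratio of the control probe sets, 2.27, a sign of RNA quality. At the same stage the replicate 2 array of wild-type ovary and the replicate 1 array of knock-out testis followed, each at 1.76. The pair of wild-type testis arrays at E12.5 was almost identical, with an SD of log2 differences of 0.142, where the other pairs had 0.335 to 0.587.

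Dhh, the ligand gene, read higher in every testis array than in any ovary array. The wild-type testis arrays read 509 and 419 (E12.5) and 630 and 552 (E14.5), and the knock-out testis arrays 413 and 684 (E12.5) and 614 and 602 (E14.5). In ovary it read 53.0 and 54.0 (wild type, E12.5), 31.8 and 111 (knock-out, E12.5), 11.8 and 148 (wild type, E14.5) and 16.4 and 19.2 (knock-out, E14.5). The lowest testis array, at 413, lay above the highest ovary array, at 148, so the sexes did not overlap, while the ovary arrays differed widely among themselves. As the mean of the 4 testis-against-ovary differences, Dhh was 12.3-fold higher in testis (log2 3.62, SE 0.38, limma adjusted p = 5.08e-05).

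By stage, the difference passed the test at E14.5 and not at E12.5, and a change of the difference with stage was not detected. At E14.5 Dhh was 12.1-fold higher in wild-type testis (log2 3.60, SE 0.75, limma adjusted p = 0.0167) and 28.1-fold higher in knock-out testis (log2 4.81, SE 0.75, limma adjusted p = 0.00189). At E12.5 the log2 difference was 3.02 in wild type (limma adjusted p = 0.0993) and 3.06 in knock-out (limma adjusted p = 0.0684). The stage effect in wild-type testis minus that in ovary was 0.58, with a 95% confidence interval from -1.72 to 2.88 (limma adjusted p = 0.794). A second Dhh probe set was dimmer, with testis arrays between 8.84 and 49.5 and ovary arrays between 3.82 and 7.34, again without overlap. In bulk tissue, fewer cells of a type and less RNA per cell cannot be told apart.

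**Figure D1:**
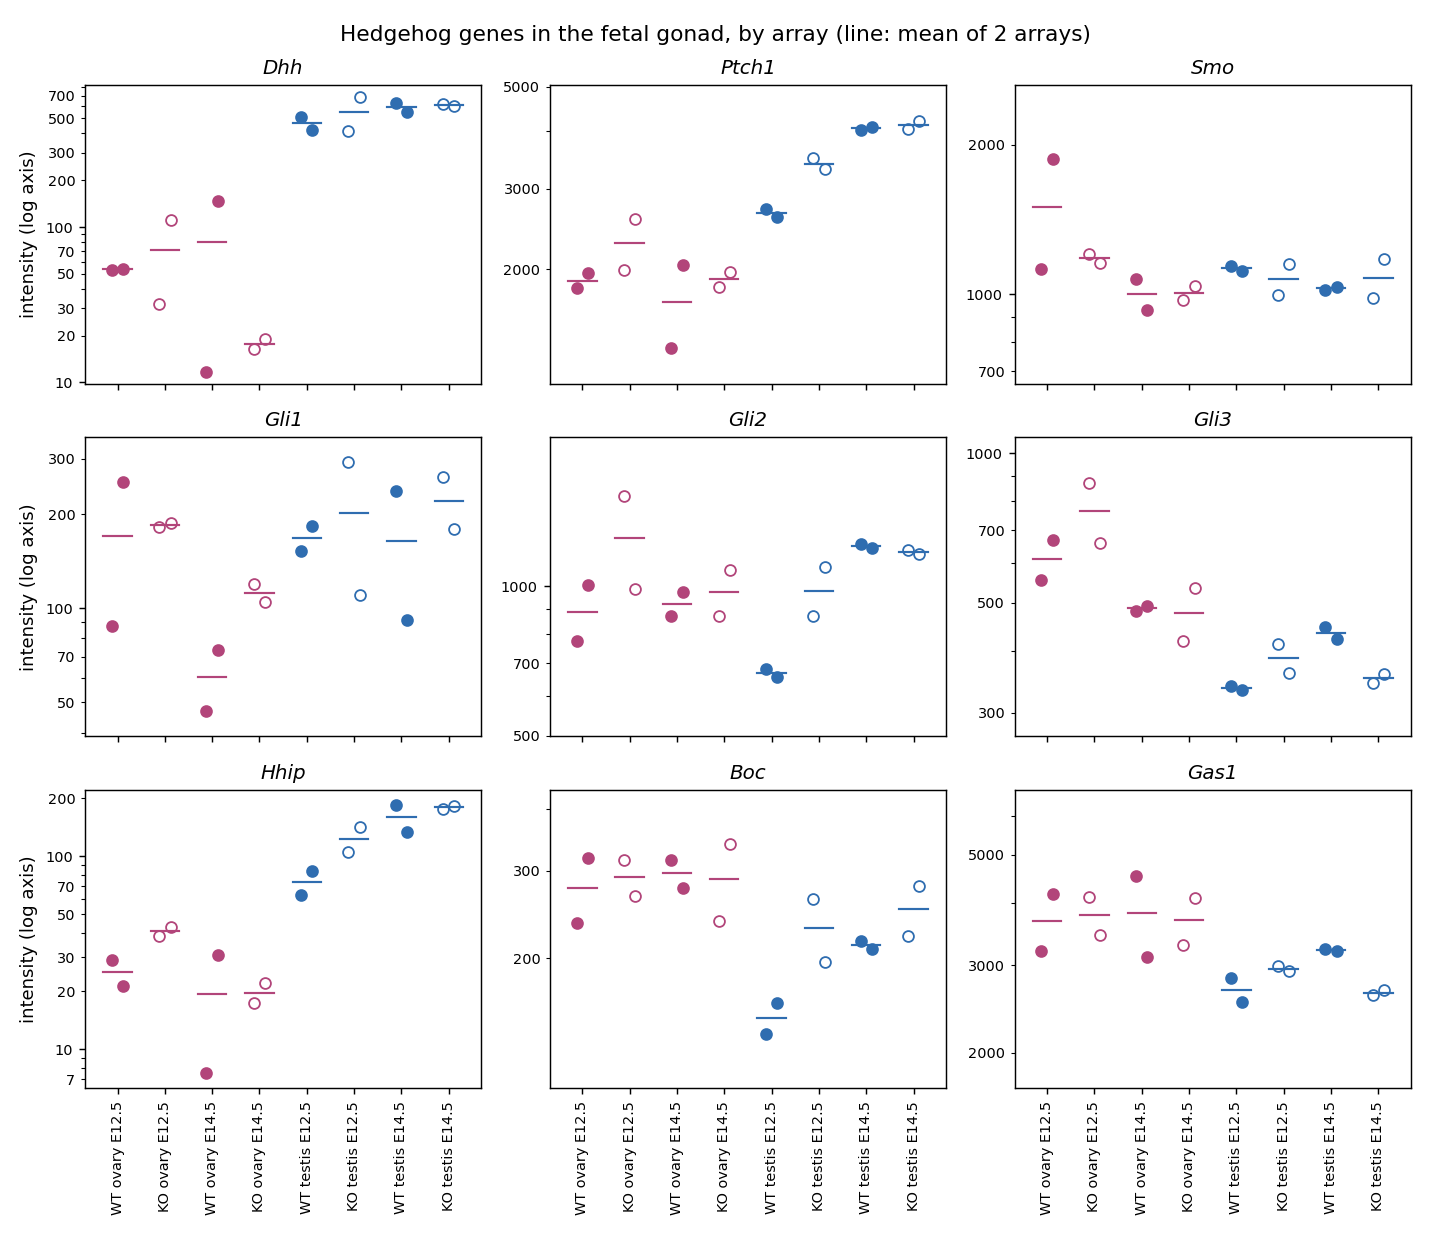
Intensity of each of the 9 genes (log axis, one scale per panel) in the 8 groups; circles are arrays, filled for wild type (WT) and open for Wnt4 knock-out (KO), pink for ovary and blue for testis, and lines are means of 2 arrays. Testis arrays of Dhh lie between 413 and 684 and ovary arrays between 11.8 and 148, and Smo stays between 930 and 1871 throughout.

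Among the 8 ovary arrays, Dhh was highest where Y-linked RNA was present. The 4 ovary arrays with a testis share of 6.95% or more read 53.0, 54.0, 111 and 148, and the 4 with 0.432% or less read 31.8, 11.8, 16.4 and 19.2. A testis share multiplied by the mean Dhh of the testis arrays of the same stage, 506 at E12.5 and 599 at E14.5, gives 92.0 and 35.2 for wild-type ovary at E12.5 (measured 53.0 and 54.0) and 119 for the replicate 2 array of wild-type ovary at E14.5 (measured 148). For the replicate 2 array of knock-out ovary at E12.5 it gives 90.8 (measured 111). The 4 arrays with little testis RNA would have 1.13 to 2.59 by the same product and read 11.8 to 31.8. The summed intensity of 8 tested Sertoli cell markers was 464 and 2682 in the wild-type ovary arrays at E14.5 and 393 and 1555 in knock-out ovary at E12.5. In each of these pairs the array with more testis RNA had the higher sum. In wild-type ovary at E12.5 the order was the other way, 798 with 18.2% testis RNA and 995 with 6.95%. Knock-out ovary at E14.5 read 553 and 550, against 5121 to 8068 in testis, and no marker was listed at 0. Of these markers only Fgf9 was lower in the wild-type ovary array of E14.5 with 19.9% testis RNA, at 25.1 against 60.0 in its partner.

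**Figure D2:**
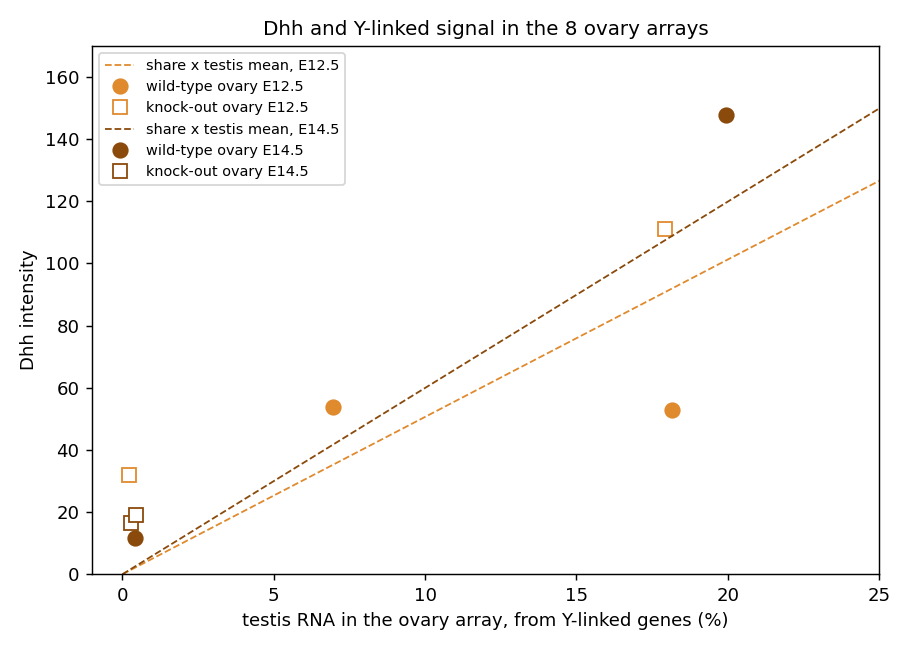
Dhh intensity in the 8 ovary arrays against the share of testis RNA estimated from Y-linked genes (%); circles are wild type, open squares knock-out, orange E12.5 and brown E14.5, and dashed lines are the share times the testis mean of that stage (506 or 599). The highest point is the replicate 2 array of wild-type ovary at E14.5, with 19.9% testis RNA and a Dhh of 148.

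With the share of other-sex RNA as a covariate, the E12.5 difference of Dhh in wild type was 3.71 (limma adjusted p = 0.0361) and in knock-out 3.56 (limma adjusted p = 0.0156). The covariate had a common slope for testis RNA in ovary arrays and ovary RNA in testis arrays, so these values are not a correction for either. Whether the E12.5 differences of Dhh passed also depended on the wild-type ovary arrays of E14.5, the pair that differed most in Dhh. Those arrays are not in these comparisons. Leaving either out left the differences at 3.02 in wild type and 3.06 in knock-out and changed only the spread shared by all groups. Without the second knock-out ovary array of E12.5, with 17.9% testis RNA, the knock-out difference of Dhh was 3.90 (limma adjusted p = 0.0207). Single arrays mattered at E14.5. Without the replicate 1 array of wild-type ovary, which has little testis RNA, the wild-type difference of Dhh was 1.97 (limma adjusted p = 0.127), and without the replicate 2 array it was 5.24. Leaving out either wild-type testis array at E14.5 also ended the call, with limma adjusted p = 0.103 and 0.0913.

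Ptch1, the receptor and a target of the pathway, was higher in testis. Wild-type testis read 2704 and 2595 where wild-type ovary read 1819 and 1963 (E12.5), and 4022 and 4095 where ovary read 1352 and 2047 (E14.5). Knock-out testis read 3492 and 3303 where knock-out ovary read 1991 and 2581 (E12.5), and 4041 and 4204 where ovary read 1834 and 1972 (E14.5). Every testis array lay above every ovary array, with the closest values, 2595 in testis and 2581 in ovary, at E12.5.

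At E14.5 Ptch1 was 2.44-fold higher in wild-type testis (log2 1.28, SE 0.17, limma adjusted p = 0.00141) and 2.17-fold higher in knock-out testis (limma adjusted p = 0.00184). At E12.5 the fold was 1.40 in wild type (limma adjusted p = 0.211) and 1.5 in knock-out (limma adjusted p = 0.119). Without the second knock-out ovary array of E12.5 the knock-out difference of Ptch1 was 0.77 (limma adjusted p = 0.0340). The mean over genotype and stage was a 1.82-fold higher level in testis (log2 0.87, SE 0.09, limma adjusted p = 4.04e-05). Other probe sets of Ptch1 were dim, with medians over all arrays of 13.2 and 15.1, and their mean differences of 0.63 and 1.01 had the same direction. With the mean of the Ptch1 probe sets the knock-out difference at E14.5 was 0.95 and did not pass (limma adjusted p = 0.0743), and the wild-type one was 1.16 (limma adjusted p = 0.0392).

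Hhip, whose product binds hedgehog ligands, was several-fold higher in testis than in ovary. Wild-type testis read 62.9 and 84.3 where wild-type ovary read 28.9 and 21.3 (E12.5), and 185 and 133 where ovary read 7.51 and 30.9 (E14.5). Knock-out testis read 105 and 141 where knock-out ovary read 38.5 and 43.2 (E12.5), and 175 and 182 where ovary read 17.3 and 22.0 (E14.5). No ovary array reached the lowest testis array, and the wild-type ovary array with 19.9% testis RNA read 30.9 where its partner read 7.51.

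For Hhip the difference at E14.5 was 8.02-fold in wild type (log2 3.0, SE 0.41, limma adjusted p = 0.00151; 2.20 without the first and 3.80 without the second wild-type ovary array of E14.5) and 7.78-fold in knock-out (limma adjusted p = 0.000797). The E12.5 folds of 2.66 and 2.81 did not pass (limma adjusted p = 0.150 and 0.0955). In knock-out the E12.5 difference of Hhip passed without either wild-type ovary array of E14.5 (limma adjusted p = 0.0209 and 0.0204). All 4 Hhip probe sets were higher in testis in the mean comparison, with log2 differences of 2.22, 1.59, 1.49 and 1.72.

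Of the 9 genes, 0 passed in wild-type testis against ovary at E12.5, where 0.608% of all tested genes did; 6 members and 2060 genes had an unadjusted p under 0.05 in limma. At E14.5, 3 of 9 were called in wild type, against 3.83% of all genes (2.26% higher), and 3 of 9 in knock-out, against 5.33% (3.84% higher). These were Dhh, Ptch1 and Hhip in both genotypes, all higher in testis. The E12.5 knock-out comparison called 1 of 9, Gli3, lower in testis, against 1.14% of all genes (0.721% lower). As the mean over genotype and stage, 6 of 9 were called, against 11.2% of all genes: 3 were higher in testis, against 5.29% of all genes, and 3 lower, against 5.87%. Single arrays moved the E12.5 count in wild type. Without the first wild-type ovary array of E12.5, Gli3 (-0.98), Boc (-1.06) and Smo (-0.73) passed as lower in testis. These differences rest in ovary on the second array alone, whose 3'/5' ratio was 1.76. Its Smo value was 1871, where the first array read 1126. Without either wild-type ovary array of E14.5 Hhip passed as higher, with its difference unchanged at 1.41. A fit on the arrays of one comparison alone left none of the 3 wild-type calls at E14.5 (limma adjusted p = 0.200 for Dhh and 0.111 for both Ptch1 and Hhip).

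**Figure D3:**
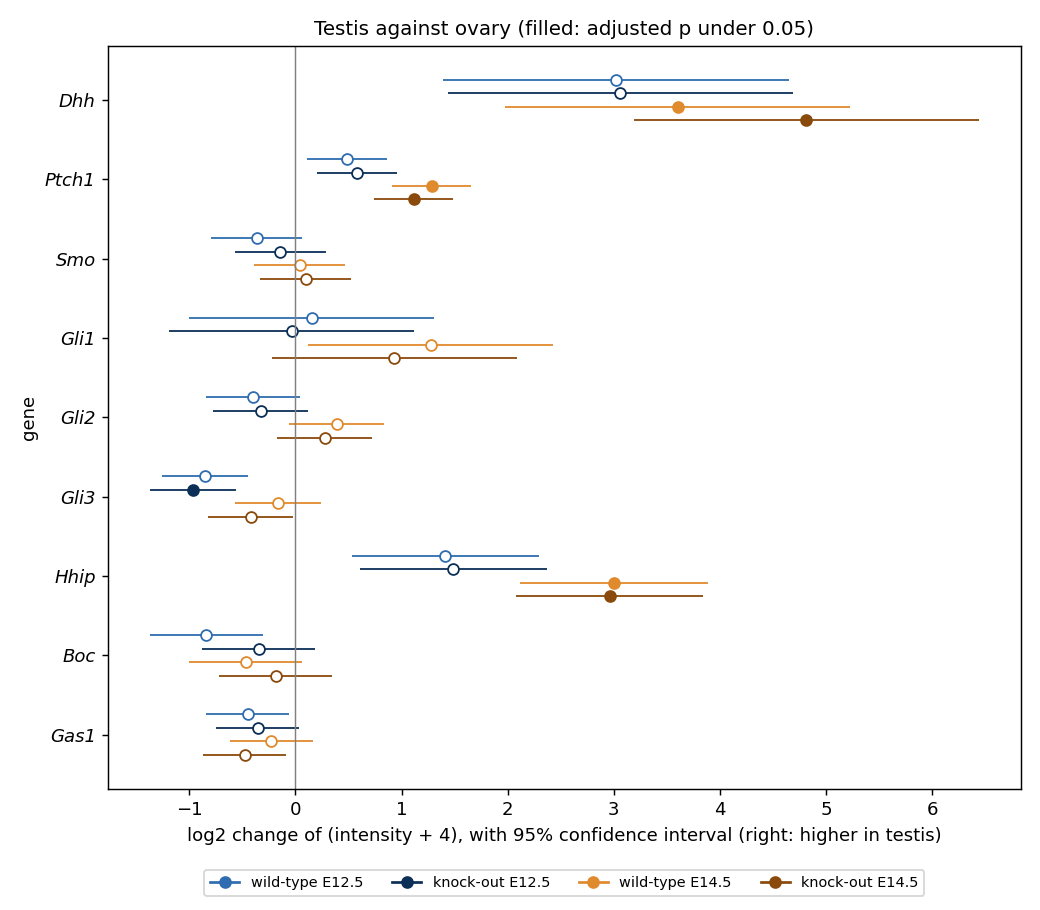
Testis-against-ovary change of log2(intensity + 4) for each gene with its 95% confidence interval, by genotype and stage (light and dark blue for wild type and knock-out at E12.5, orange and brown at E14.5); filled points passed an adjusted p of 0.05. Dhh, Ptch1 and Hhip lie to the right at E14.5, and Gli3, Boc and Gas1 lie to the left of 0 in all 4 comparisons.

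Gli1, a transcriptional activator induced by the signal, passed in none of the testis-against-ovary comparisons, and some of its pairs of arrays lay far apart. Its wild-type ovary arrays read 88.0 and 253 (E12.5), then 46.8 and 73.3 (E14.5), and its wild-type testis arrays 152 and 183, then 236 and 91.8. Knock-out ovary read 181 and 187, then 119 and 104, and knock-out testis 293 and 110, then 263 and 179. At E14.5 testis was higher without overlap, 2.42-fold in wild type (log2 1.28, SE 0.53, limma adjusted p = 0.250) and 1.91-fold in knock-out (limma adjusted p = 0.416), and at E12.5 the arrays of both sexes overlapped.

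Gli2, the main activator of the family, had no testis-against-ovary difference past the threshold and no single direction. In ovary it read 774 and 1005 (wild type, E12.5), 1518 and 986 (knock-out, E12.5), 870 and 973 (wild type, E14.5) and 871 and 1078 (knock-out, E14.5). In testis it read 680 and 656, 869 and 1091, 1218 and 1196, and 1185 and 1163 in the same order. Wild-type testis was below wild-type ovary at E12.5 (log2 -0.40) and above it at E14.5 (0.39), without overlap of the arrays, and neither passed (limma adjusted p = 0.334 and 0.390). In knock-out the arrays overlapped at E12.5, and testis lay above ovary at E14.5 (0.28, limma adjusted p = 0.569). The other Gli2 probe set overlapped in wild type at E12.5, with 182 and 436 in ovary and 215 and 203 in testis. At E14.5 it read 169 and 212 in wild-type ovary and 251 and 278 in wild-type testis.

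Gli3, which acts mostly as a repressor of hedgehog targets, was lower in testis. Ovary arrays read 556 and 669 (wild type, E12.5), 870 and 660 (knock-out, E12.5), 482 and 493 (wild type, E14.5) and 419 and 535 (knock-out, E14.5). Testis arrays read 340 and 334, 414 and 361, 446 and 422, and 345 and 360 in the same order. Within each genotype and stage the testis arrays lay below the ovary arrays. Over genotype and stage Gli3 was 1.52-fold lower in testis (log2 -0.60, SE 0.09, limma adjusted p = 0.00107), and at E12.5 the knock-out difference passed (1.95-fold lower, limma adjusted p = 0.0258) while the wild-type difference of -0.85 did not (limma adjusted p = 0.0621). The probe sets of Gli3 disagreed in size: the 2 others gave mean differences of -0.22 and -0.01, and their knock-out differences at E12.5 were -0.30 and 0.28, and with the mean of its probe sets that difference was -0.33 (limma adjusted p = 0.307). That call was also lost without the replicate 1 array of knock-out ovary, which has the highest 3'/5' ratio (-0.77, limma adjusted p = 0.351), without either knock-out testis array at E12.5 (limma adjusted p = 0.0654 and 0.137), and without either of the almost identical wild-type testis arrays (limma adjusted p = 0.0578).

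Smo, the transducer through which the signal enters the cell, differed little between groups in its brightest probe set. Its arrays ranged from 983 to 1177 in testis, with a median of 1072, and from 930 to 1871 in ovary, with a median of 1100. The highest value, 1871, was 1 wild-type ovary array at E12.5, and its partner read 1126. The mean difference was -0.09 on the log2 scale, with a 95% confidence interval from -0.31 to 0.12 (limma adjusted p = 0.588). The next brightest Smo probe set had group means of 948 and 1039 in wild-type and knock-out ovary at E12.5. In the other groups its means ran from 591 to 708.

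The co-receptor genes Gas1 and Boc were modestly lower in testis. Gas1 ranged from 3115 to 4539 in ovary (median 3777) and from 2527 to 3231 in testis (median 2872), and 2 ovary arrays, at 3115 and 3200, lay within the testis range. It was 1.30-fold lower in testis over genotype and stage (log2 -0.38, SE 0.09, limma adjusted p = 0.0175). Boc ranged from 235 to 339 in ovary (median 297) and from 141 to 280 in testis (median 213), with overlap, and was 1.38-fold lower (log2 -0.46, SE 0.12, limma adjusted p = 0.0291). The next brightest probe sets gave -0.41 for Gas1 and -0.44 for Boc. For Gas1 the call was lost without the E12.5 arrays of high 3'/5' ratio (limma adjusted p = 0.108) and without the replicate 2 array of wild-type testis at E12.5 or of knock-out ovary at E14.5 (limma adjusted p = 0.0548 and 0.0550). For Boc it was lost on leaving out any of 9 single arrays (limma adjusted p from 0.0582 to 0.0849).

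Across groups, the 4 testis groups had one order of mean levels for Dhh, Ptch1 and Hhip, with knock-out and wild-type testis at E14.5 on top, and the order of the ovary groups differed between these genes. For Dhh the group means fell from 608 (knock-out testis, E14.5) through 591, 548 and 464 (wild-type testis, E12.5) to 79.8, 71.4, 53.5 and 17.8 (knock-out ovary, E14.5), and the 4 testis groups overlapped with their neighbours in that order. For Ptch1 the means were 4123 and 4058 in testis at E14.5, which overlapped, then 3398, 2650, 2286, 1903, 1891 and 1700. Hhip ran from 179 and 159 in testis at E14.5 through 123, 73.6 and 40.8 to 25.1, 19.6 and 19.2, and its 3 lowest groups, all ovary, overlapped. For Gas1 and Boc the 4 ovary groups stood highest and overlapped with each other.

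With stage, the receptor and one activator rose in wild-type testis. Ptch1 rose from 2704 and 2595 to 4022 and 4095, 1.53-fold (log2 0.61, SE 0.17, limma adjusted p = 0.0390), and Gli2 from 680 and 656 to 1218 and 1196, 1.80-fold (log2 0.85, SE 0.21, limma adjusted p = 0.0197). These are 2 of 9 members, where 10.6% of all genes were called (6.73% higher). Both calls were lost when the almost identical E12.5 arrays were averaged to 1 array (limma adjusted p = 0.199 for Ptch1 and 0.133 for Gli2) and on leaving out any one of the 4 wild-type testis arrays. The probe sets of Ptch1 disagreed: a dim one went from 21.8 and 28.9 to 13.4 and 9.49, a log2 difference of -0.93, and another from 18.9 and 14.9 to 68.1 and 28.7, a difference of 1.22, and neither passed (limma adjusted p = 0.153 and 0.156 with each probe set as a feature). With the mean of its probe sets the difference of Ptch1 was 0.30 and did not pass (limma adjusted p = 0.524). The other Gli2 probe set differed by 0.33, and the mean of both by 0.59 (limma adjusted p = 0.127), which did not pass. Hhip went from 62.9 and 84.3 to 185 and 133, a log2 change of 1.06 (limma adjusted p = 0.115; 0.0269 and 0.0266 without either wild-type ovary array of E14.5), and Dhh changed by 0.35 (limma adjusted p = 0.819).

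In knock-out testis the same changes with stage were 0.28 for Ptch1 and 0.27 for Gli2, and 0 of 9 members passed, where 4.04% of all genes did; the difference from wild-type testis was not tested. In wild-type ovary 0 of 9 passed, where 4.36% of all genes did, with Gli1 at -1.29 (limma adjusted p = 0.217) and Smo at -0.54 (limma adjusted p = 0.168). Without the replicate 1 array of wild-type ovary at E12.5 these were -2.03 and -0.90 and passed. They then rest at E12.5 on the replicate 2 array alone, whose 3'/5' ratio was 1.76. That array read 253 for Gli1 and 1871 for Smo, against 88.0 and 1126 in replicate 1. Without the second wild-type ovary array of E14.5, with 19.9% testis RNA, Hhip changed by -1.33 (limma adjusted p = 0.0385). Knock-out ovary had 1 of 9, against 13.8% of all genes (8.46% lower): Gli3 fell from 870 and 660 to 419 and 535, 1.60-fold (limma adjusted p = 0.0326). Its other probe sets gave log2 differences of -0.45 and, for a dim one, 1.06, which did not pass (limma adjusted p = 0.124 and 0.0786 with each probe set as a feature). With the mean of its probe sets the difference of Gli3 was -0.02 (limma adjusted p = 0.940). Gli3 changed by -0.47 without the replicate 1 array at E12.5, whose 3'/5' ratio was 2.27 (limma adjusted p = 0.300), and by -0.50 without the replicate 1 array of knock-out ovary at E14.5 (limma adjusted p = 0.235). Dhh in knock-out ovary changed by -1.56 (limma adjusted p = 0.170) and passed without either wild-type ovary array of E14.5 (limma adjusted p = 0.0300 and 0.0307).

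The stage change in wild-type testis exceeded that in ovary for 9 of 9 members, with a median difference of 0.68, and the median of all genes was 0.12. The share of all genes with a positive difference was not counted. All 9 values rest on the same arrays, the almost identical E12.5 testis pair among them. None of the 9 passed (lowest limma adjusted p = 0.154 for Ptch1), where 0.154% of all genes did, and 4 members and 2244 genes had an unadjusted p under 0.05. Without the replicate 2 array of wild-type ovary at E14.5, which carries testis RNA, the difference was 2.39 for Hhip (limma adjusted p = 0.0110) and 1.10 for Ptch1 (limma adjusted p = 0.0143).

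**Figure D4:**
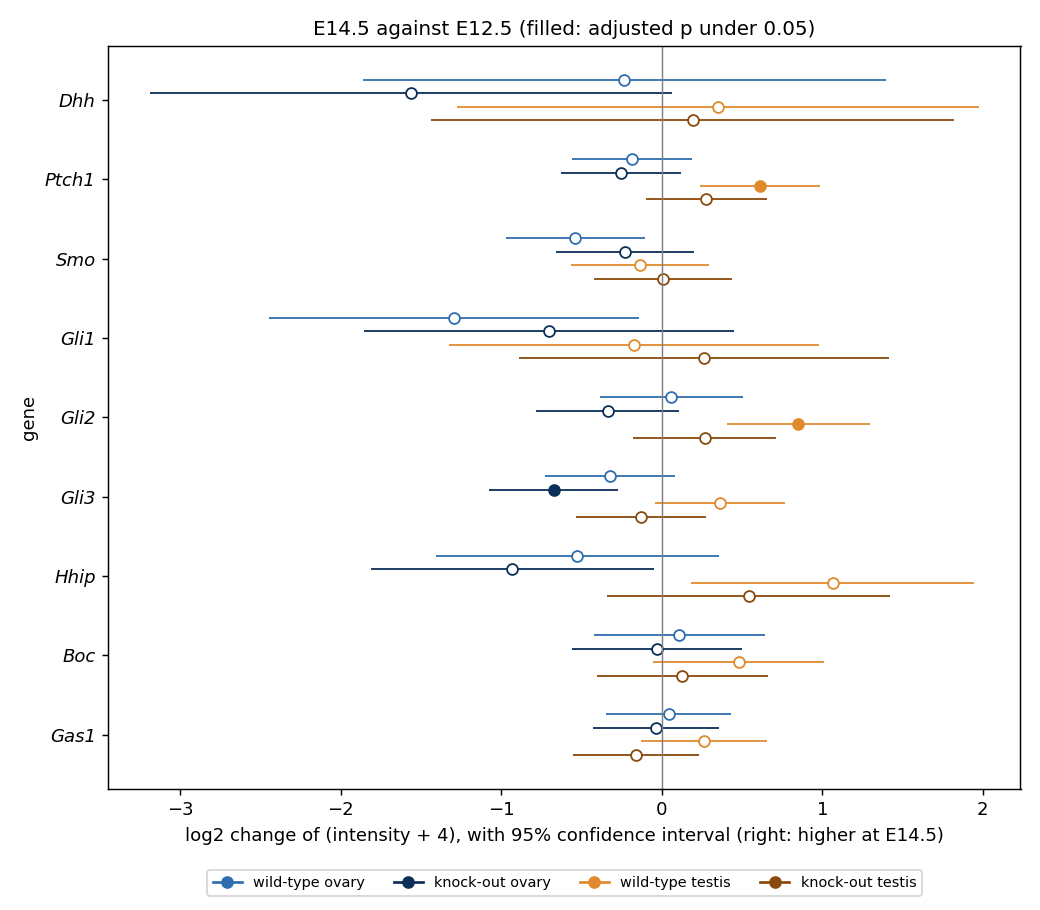
E14.5-against-E12.5 change of log2(intensity + 4) with its 95% confidence interval for each gene in the 4 kinds of gonad (light and dark blue for wild-type and knock-out ovary, orange and brown for testis); filled points passed an adjusted p of 0.05. The filled points are Ptch1 (0.61) and Gli2 (0.85) in wild-type testis and Gli3 (-0.67) in knock-out ovary.

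Loss of Wnt4 changed none of the 9 genes past the threshold, in either sex at either stage. The limma calls over all genes were 0.292% in ovary at E12.5, 0.543% in ovary at E14.5, 0.0405% in testis at E12.5 and 0.00811% in testis at E14.5, and at an unadjusted p under 0.05 the members counted 1, 0, 2 and 0. Dhh in knock-out against wild-type testis differed by 0.20 at E12.5 (95% confidence interval -1.43 to 1.83) and by 0.04 at E14.5 (-1.58 to 1.67). Ptch1, with narrower intervals, differed by 0.02 in testis at E14.5 (-0.35 to 0.40).

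In ovary at E12.5, 8 of 9 members had a positive knock-out difference, with a median of 0.26 against 0.03 for all genes, led by Hhip at 0.63 (limma adjusted p = 0.734) and Gli2 at 0.47 (limma adjusted p = 0.594). In testis at E12.5, 8 of 9 were positive as well, with a median of 0.20 against 0.10 for all genes. For neither sex was the share of all genes with a positive difference counted, and the wild-type testis arrays are the almost identical pair. Ptch1 there read 3492 and 3303 against 2704 and 2595 (log2 0.36, limma adjusted p = 0.473), and Gli2 869 and 1091 against 680 and 656 (0.54, limma adjusted p = 0.350). At E14.5 the medians were 0.01 in ovary and 0.04 in testis. Over both stages 0 of 9 passed in either sex, where 1.35% of all genes did in ovary and 0.00811% in testis, and the knock-out effect did not differ detectably between testis and ovary for any member (0 of 9 at each stage, where 0.113% of all genes passed at E12.5 and 0% at E14.5, with 295 genes at an unadjusted p under 0.05; lowest limma adjusted p = 0.923 at E12.5).

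Dhh in the ovary at E14.5 is the knock-out comparison that a single array decided. Knock-out arrays read 16.4 and 19.2 and wild-type arrays 11.8 and 148, so the knock-out pair lay between the wild-type values, and the difference was -1.17 (limma adjusted p = 0.9997). Without the wild-type array at 11.8 it was -2.80 (limma adjusted p = 0.0452), and without the array at 148, which has 19.9% testis RNA, it was 0.47 (limma adjusted p = 0.853). With the share of other-sex RNA as a covariate, again with a common slope for both sexes, it was -0.63.

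**Figure D5:**
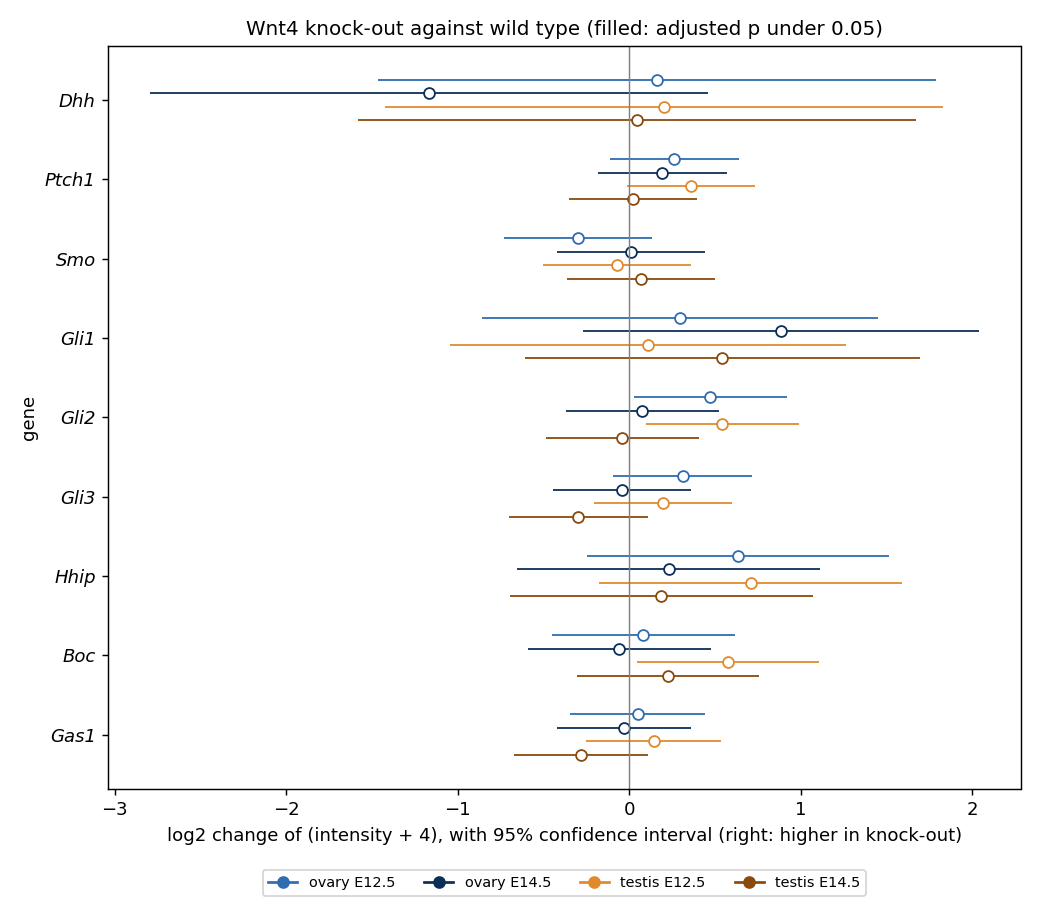
Knock-out-against-wild-type change of log2(intensity + 4) with its 95% confidence interval for each gene in ovary (light blue E12.5, dark blue E14.5) and testis (orange E12.5, brown E14.5); no point is filled, since none passed an adjusted p of 0.05. The widest intervals belong to Dhh, reaching from -2.79 to 0.46 in ovary at E14.5.

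Other genes of the pathway were read from 4 lists. Of the other ligands and genes for ligand release 7 of 8 were tested, of receptors and membrane proteins 6 of 7, of cytoplasmic and ciliary transducers 17 of 18, and of targets known from other tissues 7 of 8. In wild-type testis against ovary 0 of these passed at either stage, where 0.608% (E12.5) and 3.83% (E14.5) of all genes did, with medians at E14.5 of 0.11, -0.08, -0.01 and -0.11. Cdon, a co-receptor gene related to Boc, rose with stage in wild-type testis from 442 and 415 to 976 and 1162, 2.47-fold (log2 1.31, SE 0.23, limma adjusted p = 0.00352), as 1 of 6 receptors, where 6.73% of all genes were called higher; this comparison rests on the almost identical pair of E12.5 arrays.

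Disp2, a relative of the gene for the ligand exporter DISP1, was higher in knock-out than wild-type ovary at E12.5. It read 49.3 and 26.8 against 13.7 and 7.76 (2.81-fold, limma adjusted p = 0.0290), as 1 of 7 genes of its list. Of all genes 0.292% were called there. The knock-out effect on Disp2 differed between testis and ovary at E12.5 (log2 -2.25, limma adjusted p = 0.0271), where 0.113% of all genes passed. The wild-type ovary values, and the E12.5 testis values of 5.11 to 14.3, lie near the array median of 9.28 to 10.4. The higher knock-out ovary array, at 49.3, is the one with a 3'/5' ratio of 2.27. Sox10, a Schwann cell marker, read 131 there and 23.9 in its partner, and their part in the result was not tested. Shh, the other ligand tested, read 81.6 in that array and 10.5 to 32.1 in the other arrays.

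Genes with the most similar pattern over the 16 arrays were found by Pearson correlation of log2 values, and the arrays share sex, stage and RNA of the other sex. For Dhh these were Tmem184a (0.985), Ptgds (0.981), Tesc (0.976), Uty (0.973) and Cst9 (0.969); Ptgds and Cst9 are Sertoli cell markers and Uty is Y-linked. Within the 8 testis arrays the correlations with Dhh were 0.801 for Tmem184a, 0.378 for Ptgds, 0.244 for Tesc, 0.227 for Cst9 and 0.02 for Uty. For Ptch1 they were Hhip (0.972), Trim47 (0.966), Pak3 (0.964), Hspa12a (0.939) and Ripor2 (0.936). Ptch1 and Hhip correlated at 0.889 within testis arrays and 0.887 within ovary arrays. Hhip was most like Pak3 (0.988), Ptch1 (0.972), Prokr2 (0.957), Rerg (0.954) and Trim47 (0.954), and Gli1 like Slc4a2 (0.904), Cc2d1b (0.869), Khdc1a (0.866), Sipa1 (0.853) and Bcl10 (0.842). Among the members themselves, Dhh correlated at 0.934 with Hhip, 0.906 with Ptch1 and -0.815 with Gas1.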

How the data were processed

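Gonad RNA was extracted on columns and labelled from 8 ug, per the labels' protocols. The deposited table holds linear intensity values of each probe set, made by the authors with MAS5, the only tool in the submitters' processing notes; its version and scaling are not stated there. The scale was kept and log2(intensity + 4) taken. After removing 64 control probe sets, 25620 exceeded their array's median on 2 or more arrays. Platform annotation, with symbols updated through Entrez numbers, gave 1 symbol to 34945 probe sets, several to 932 (not named) and none to 9160. The brightest passing probe set on average stood for each gene, and other probe sets of a member are given beside its called changes.

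One limma model (version 3.58.1, R 4.3.3) with 8 group means took all 16 arrays, with a variance trend on intensity (8 residual, 5.29 prior degrees of freedom), for 18 two-sided comparisons, many of which share arrays. The code was tested on simulated data. Figures used Python 3.11.15 and matplotlib 3.10.9.

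The 9 members and the gene lists were chosen with earlier results of these data known. Named genes were every member, up to 4 genes per list by smallest p, the 5 most correlated genes for 4 members, and Wnt4, Xist, Eif2s3y, Kdm5d and Uty; Disp2, Cdon, Sox10 and Shh were described after their values were seen. The share of other-sex RNA is relative to arrays of that sex at the same stage. As a covariate it had a common slope for ovary and testis arrays. Alternatives covered the pseudocount, filter, quantile normalization, variance model, array weights, probe set summary, arrays in the fit, replicate numbers as a block, covariates, thresholds and leaving out each array. Leaving out an array that is not in a comparison kept its difference and changed only the spread shared by all groups. The number of arrays limits the precision.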

Additional observations from a re-analysis of the deposited data

How the results depend on the processing

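The number of members called was compared with 18 or 19 alternative settings per comparison and with each array left out in turn, and no direction of a called member reversed. Directions were read there from the probe set standing for each gene or from the mean of its probe sets. Single other probe sets of Ptch1 and Gli3 had the opposite direction in some comparisons, as given above. Counts stayed within 1.5 times in knock-out testis against ovary at E14.5 (2 to 3), in the mean testis-against-ovary comparison (4 to 6), and at 0 in knock-out against wild-type ovary at E12.5, both knock-out testis comparisons, the stage change of knock-out testis, the knock-out means and the knock-out interactions. In wild-type testis against ovary at E12.5 the count was 0, and 1 in a fit on its arrays alone, with the other-sex covariate or without the E14.5 arrays of over 10% other-sex RNA, 2 at a threshold of 0.1, and 0 to 3 with single arrays left out. At E14.5 it was 3, and 0 on its arrays alone. In knock-out testis against ovary at E12.5 it was 1; it was 2 with a pseudocount of 16, 4 with the other-sex covariate, 3 at a threshold of 0.1, 0 to 3 with single arrays left out, and 0 with array weights, the mean of probe sets, every probe set as a feature, its arrays alone, the almost identical testis pair averaged, without the arrays of high 3'/5' ratio and at a threshold of 0.01. Knock-out against wild-type ovary at E14.5 gave 0 to 1 with single arrays left out, and the stage change of wild-type ovary 0 to 2. For wild-type testis with stage the count was 2; it was 1 with no filter, no intensity trend or the other-sex covariate, 4 with array weights, 0 with the mean of probe sets, the averaged arrays, without E14.5 arrays of over 10% other-sex RNA and at a threshold of 0.01, and 0 to 3 with single arrays left out. For knock-out ovary with stage it was 1; it was 0 with the mean of probe sets, every probe set as a feature, its arrays alone, the averaged arrays, the 3'/5' covariate, without the arrays of high 3'/5' ratio, without those of over 10% other-sex RNA and at a threshold of 0.01, and 0 to 3 with single arrays left out. The stage effect in testis minus ovary went from 0 to 1 without E14.5 arrays of over 10% other-sex RNA, and 0 to 2 with single arrays left out. The cause of these shifts was not tested. Same-numbered arrays correlated between -0.656 and 0.581 in their deviations from group means, without a common direction. The arrays of a pair also differ in other-sex RNA and RNA quality, so this cannot tell whether the numbers pair the samples. With the replicate block the count went from 1 to 2 in knock-out testis against ovary at E12.5. It went from 2 to 1 in wild-type testis with stage, and kept its value elsewhere. A crossed pairing, chosen after seeing the data, gave counts of 3, 0, 0, 0 and 1 in the 5 comparisons with a correlation under -0.1, as without it.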

Other observations

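Several genes of fetal Leydig cells and of peritubular and smooth muscle cells rose with stage in wild-type testis, a comparison that rests on the almost identical pair of E12.5 arrays. Of 7 tested fetal Leydig cell genes, 6 were higher at E14.5 than at E12.5 in wild-type testis, where 10.6% of all genes were called (6.73% higher). Their median log2 change was 3.34, against 0.07 for all genes. Cyp17a1, an enzyme of androgen synthesis, went from 15.9 and 15.3 to 3787 and 2851, 168-fold (limma adjusted p = 0.00975). Hsd3b1, another steroidogenic enzyme, rose 11.2-fold (limma adjusted p = 0.00454), and Scarb1, a lipoprotein receptor, 3.66-fold (limma adjusted p = 0.00336). In the wild-type ovary array at E14.5 with 19.9% testis RNA Cyp17a1 read 1459, and in its partner 6.58. Of 5 tested genes of peritubular and smooth muscle cells, 3 rose with stage in wild-type testis, against 6.73% of all genes called higher. They were Acta2, 3.01-fold (limma adjusted p = 0.00123), Myocd, 3.69-fold (limma adjusted p = 0.00129), and Myh11, 3.72-fold (limma adjusted p = 0.0130). Of 6 tested genes of interstitial cells, 1 was called higher, against 6.73% of all genes. It was Pdgfra, a growth factor receptor (1.78-fold, limma adjusted p = 0.00364). Nr2f1, from 2132 and 1997 to 1052 and 1488, did not pass (limma adjusted p = 0.0583). In knock-out against wild-type testis 0 of the Leydig and muscle genes passed at either stage, where 0.0405% (E12.5) and 0.00811% (E14.5) of all genes did.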
